A study of Mus musculus with 9 samples.

Results

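The genes described here encode the constitutive proteasome, its assembly chaperones and its non-inducible regulators in mouse RAW264.7 macrophages. They were chosen by symbol, as every gene named Psm with a letter from a to g and a number, leaving out the 5 inducible genes Psmb8, Psmb9, Psmb10, Psme1 and Psme2. The deposited table holds 55401 genes, of which 43 fit that rule and 42 had a mean of at least 1 TPM (a length-corrected share of each sample's RNA). The gene left out was Psmb11, a thymus-specific beta subunit with a mean of 0.021 TPM, and the member with the lowest mean above the limit was Psmf1 at 17.5 TPM. RAW264.7 is a wild-type mouse macrophage line derived from a male tumour induced by Abelson leukaemia virus, so every sample comes from the same transformed line. The 9 samples form 3 groups of 3 that were kept for 24 h in DMSO (the vehicle), in LPS with DMSO (lipopolysaccharide, a bacterial cell wall component), or in LPS with skatole (Ska, an indole compound). All LPS + Ska cells therefore also received LPS, and the labels do not state whether that group held DMSO. The labels number the replicates of each group 5, 6 and 7 and do not say whether they were separate cultures, so the p-values measure the spread between these columns only.

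The proteasome degrades proteins that carry ubiquitin chains. Its 20S core is a barrel of outer alpha rings, which gate the entry, and inner beta rings, which hold the chymotrypsin-like (Psmb5), caspase-like (Psmb6) and trypsin-like (Psmb7) sites. The 19S regulator caps the core. Its base carries the Psmc ATPases that unfold substrates, and its lid carries Psmd14, which removes the ubiquitin chain. In macrophages exposed to inflammatory signals, inducible Psmb8, Psmb9 and Psmb10 can replace the constitutive catalytic subunits to form the immunoproteasome, and proteasomes also process the inhibitors that restrain NFκB.

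Columns of the cells given LPS, with or without skatole, were tied. Averaging replicates 6 and 7 returned replicate 5 for all 42 members and for every gene whose 3 values were above 0, which were 17950 of 17950 genes with LPS and 17658 of 17658 with LPS + Ska (tolerance 1e-05 TPM). In DMSO this held for at most 0.0636% of genes. These groups hold at most 2 independent values per gene, so an SD over their 3 columns may misstate the spread between samples. The columns summed to between 999895 and 1000145 TPM, between 12498 and 13012 genes per column reached 1 TPM, and sequencing depth is unknown because TPM does not keep it. Transcripts of the mitochondrial genome took 7.20% to 11.9% of the total. Of 9 macrophage markers, 8 were present, with Mertk listed at 0, and markers of T cells, B cells, fibroblasts, epithelium and endothelium were at or below 0.672 TPM. Of the neutrophil markers Ly6g and S100a9 were listed at 0 and S100a8 reached 3.07 TPM.

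The 42 members are 15 genes of the 20S core (8 alpha ring and 7 beta ring), 17 of the 19S regulator (9 of the base and 8 of the lid) and 10 others, namely 4 chaperones of the core, 3 chaperones of the base and 3 activators or inhibitors. Together they took 0.726% to 0.759% of summed TPM with DMSO, 0.779% to 0.780% with LPS and 0.818% to 0.864% with LPS + Ska, so the 3 groups did not overlap in this share. Core genes were spread widely, from Psma8 at 22.9 TPM to Psma6 at 546 TPM in the mean of 9 columns. Psma8 encodes a testis form of Psma7, and its reads may be shared with that close copy, so its values are uncertain. Without Psma8 the lowest core gene was Psmb5 at 78.3 TPM, a 6.98-fold range. The 17 genes of the 19S regulator lay within a 2.31-fold range, from Psmd13 at 114 TPM to Psmd2 at 264 TPM. The chaperones and regulators had the lowest levels, with a median of 45.6 TPM against 182 TPM for the 19S regulator and 231 TPM for the core. The median coefficient of variation over the 3 columns of a group was 4.35% with DMSO, 2.15% with LPS and 7.32% with LPS + Ska, the last 2 from tied columns.

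**Figure D1:**
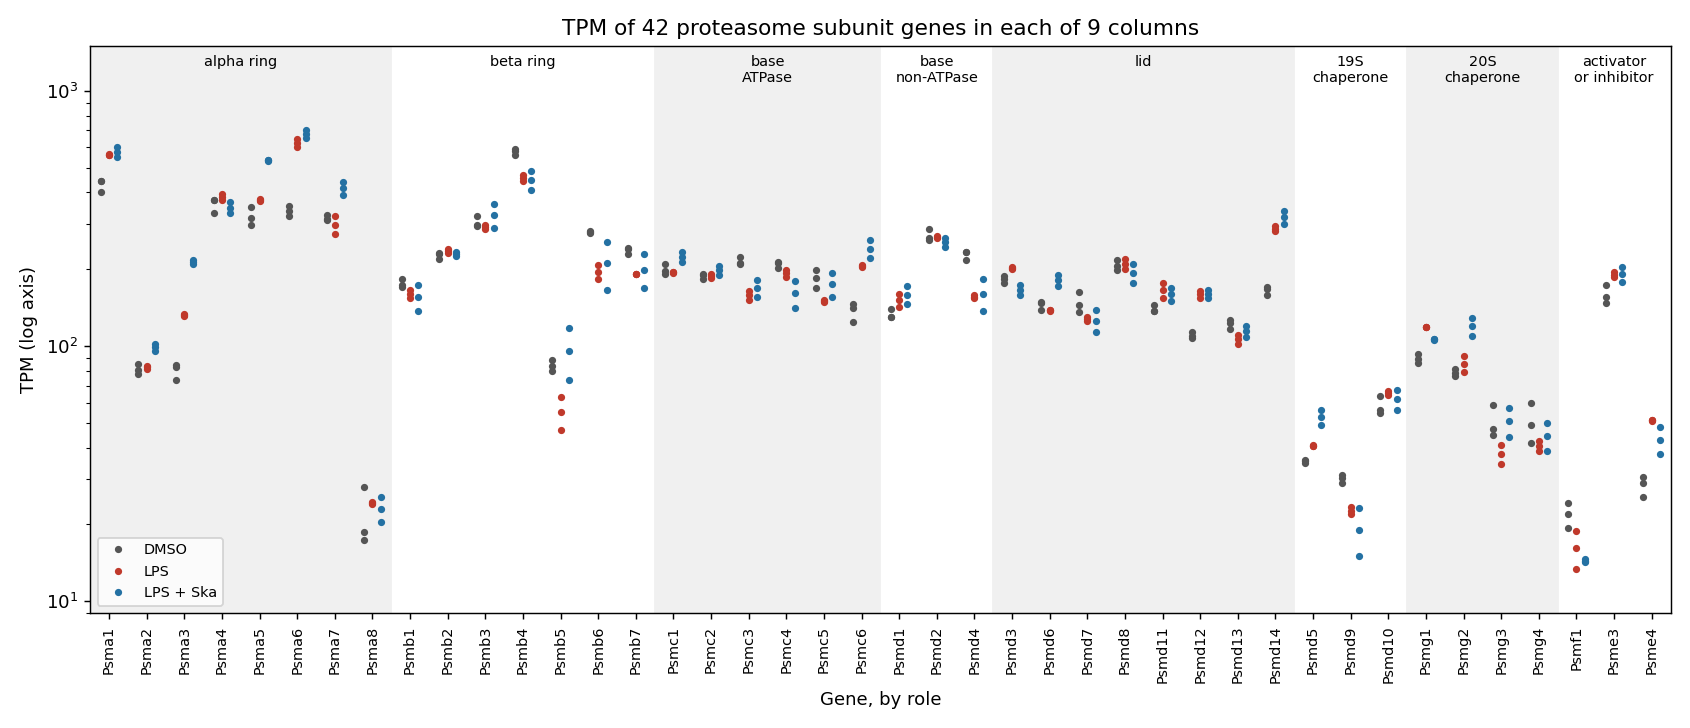
TPM of each of the 42 members (log axis) in the 9 columns, ordered by role, with DMSO in grey, LPS in red and LPS + Ska in blue. Genes of the 19S base and lid lie in a narrow band, the core spans a wider one, and Psma8, Psmd9 and Psmf1 are the lowest.

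LPS compared with DMSO asked how an inflammatory stimulus changed these genes. The alpha ring and the beta ring moved in opposite directions: 4 of 8 alpha genes rose and none fell, while 4 of 7 beta genes fell and none rose. With a trend on transcript GC content removed, the median changes went from 0.21 to 0.01 for the alpha ring and from -0.305 to -0.20 for the beta ring, and each ring had genes called in both directions. Over all members 13 rose, 11 fell and 18 did not pass (limma on log2(TPM + 1), Benjamini-Hochberg adjusted p below 0.05 over 12819 genes), beside 26.2% of all tested genes that rose and 34.2% that fell. With a fold limit added, above 1.5 or below 0.67, 5 members were higher (Psma3, Psma6, Psmc6, Psmd14 and Psme4) and Psmb5 was lower, beside 12.7% and 20% of all genes. The median change of the members was 0.01 on the log2 scale, against -0.07 for all genes, so the members did not shift as a block.

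Psma6, an alpha ring subunit and the member with the highest mean, had 323, 338 and 355 TPM with DMSO, 624, 646 and 602 TPM with LPS, and 676, 700 and 653 TPM with LPS + Ska, in the order of replicates 5, 6 and 7. Every LPS value was above every DMSO value and below every LPS + Ska value. The change with LPS was 0.88 ± 0.05 (log2, SE; adjusted p = 1.4e-06), a 1.84-fold rise and the largest among the members. From LPS to LPS + Ska the change was 0.12 ± 0.05 and did not pass (adjusted p = 0.1355).

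Psmd14, the lid deubiquitinase, rose beside it. It had 159, 170 and 168 TPM with DMSO, 288, 296 and 281 TPM with LPS, and 321, 339 and 302 TPM with LPS + Ska. DMSO was lowest without overlap, and the LPS and LPS + Ska columns also did not overlap, although they lay close. The LPS change was 0.80 ± 0.06 (adjusted p = 3.5e-06), and that of LPS + Ska over LPS, 0.15 ± 0.06, did not pass (adjusted p = 0.0731).

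Psma3, another alpha ring gene, had 82.7, 84.0 and 73.6 TPM with DMSO, 132, 131 and 133 TPM with LPS, and 214, 218 and 210 TPM with LPS + Ska. The 3 groups formed separate steps. The first step, LPS over DMSO, was 0.72 ± 0.06 (adjusted p = 8.2e-06), and 0.21 with a trend on transcript GC content removed (adjusted p = 0.0277).

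Of the catalytic genes, Psmb5 had 83.7, 80.1 and 88.4 TPM with DMSO, 54.9, 46.9 and 62.9 TPM with LPS, and 95.8, 73.6 and 118 TPM with LPS + Ska. LPS was lowest without overlap, and the LPS + Ska columns spread around those of DMSO. The fall with LPS was -0.61 ± 0.16 (adjusted p = 0.0081).

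Psmb6, which carries the caspase-like site, had 276, 280 and 283 TPM with DMSO, 196, 184 and 208 TPM with LPS, and 211, 166 and 255 TPM with LPS + Ska. All 6 columns with LPS lay below DMSO, and the LPS + Ska columns enclosed those of LPS. Its change with LPS was -0.51 ± 0.13 (adjusted p = 0.0065). Psmb7, with the trypsin-like site, had 230, 242 and 240 TPM with DMSO, 192, 192 and 191 TPM with LPS, and 199, 169 and 229 TPM with LPS + Ska. LPS was below DMSO in every column, with a change of -0.31 ± 0.09 (adjusted p = 0.0178). The call was lost without DMSO replicate 6 (adjusted p = 0.0538) and under median-ratio scaling (adjusted p = 0.0986). Psmb4, a non-catalytic beta subunit, had 583, 590 and 559 TPM with DMSO, 455, 467 and 443 TPM with LPS, and 448, 409 and 487 TPM with LPS + Ska. Both LPS groups were below DMSO and overlapped each other, and the LPS change was -0.34 ± 0.06 (adjusted p = 0.0014).

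In the 19S base, Psmd4, a ubiquitin receptor, had 233, 217 and 234 TPM with DMSO, 156, 158 and 154 TPM with LPS, and 160, 137 and 183 TPM with LPS + Ska. It fell by 0.54 on the log2 scale with LPS (SE 0.09, adjusted p = 0.0007) and DMSO overlapped neither group. Psmc3, a base ATPase, had 211, 209 and 223 TPM with DMSO, 158, 152 and 164 TPM with LPS, and 168, 155 and 181 TPM with LPS + Ska. It was likewise lower than DMSO in all 6 LPS columns, by -0.44 ± 0.06 with LPS (adjusted p = 0.00031), a value that was -0.12 with the GC trend removed (adjusted p = 0.0793). Not every ATPase fell: Psmc6 rose by 0.59 ± 0.08 (adjusted p = 0.00013), Psmc5 fell by 0.29 on the log2 scale (adjusted p = 0.0143), and Psmc1, Psmc2 and Psmc4 did not pass. With the GC trend removed neither Psmc6 (-0.0086, adjusted p = 0.8988) nor Psmc5 (-0.19, adjusted p = 0.0878) passed, and the Psmc5 call was also lost under median-ratio scaling, with the length trend removed and without DMSO replicate 7. In the lid 4 of 8 genes rose (Psmd3, Psmd11, Psmd12 and Psmd14) and Psmd13 fell.

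Among the other members, Psmd5 and Psme3 (PA28 gamma) rose, Psmd9 and Psmg3 fell, and Psme4, the PA200 activator, rose by 0.83 ± 0.10 (adjusted p = 7.5e-05). Psmg1, a chaperone that starts core assembly, had 93.2, 85.6 and 89.2 TPM with DMSO, 119, 119 and 119 TPM with LPS, and 106, 107 and 106 TPM with LPS + Ska. The groups were separate, with LPS highest, and the LPS change was 0.41 ± 0.05 (adjusted p = 8.6e-05). Psmf1, which encodes the inhibitor PI31, had 21.96, 19.4 and 24.3 TPM with DMSO, 16.1, 18.9 and 13.3 TPM with LPS, and 14.4, 14.2 and 14.6 TPM with LPS + Ska. Both LPS groups lay below DMSO. Its LPS change was -0.42 ± 0.12 (adjusted p = 0.0150), and the adjusted p reached 0.0541 when a column was left out, the calls lost being those without DMSO replicate 7 and without LPS replicate 7.

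**Figure D2:**
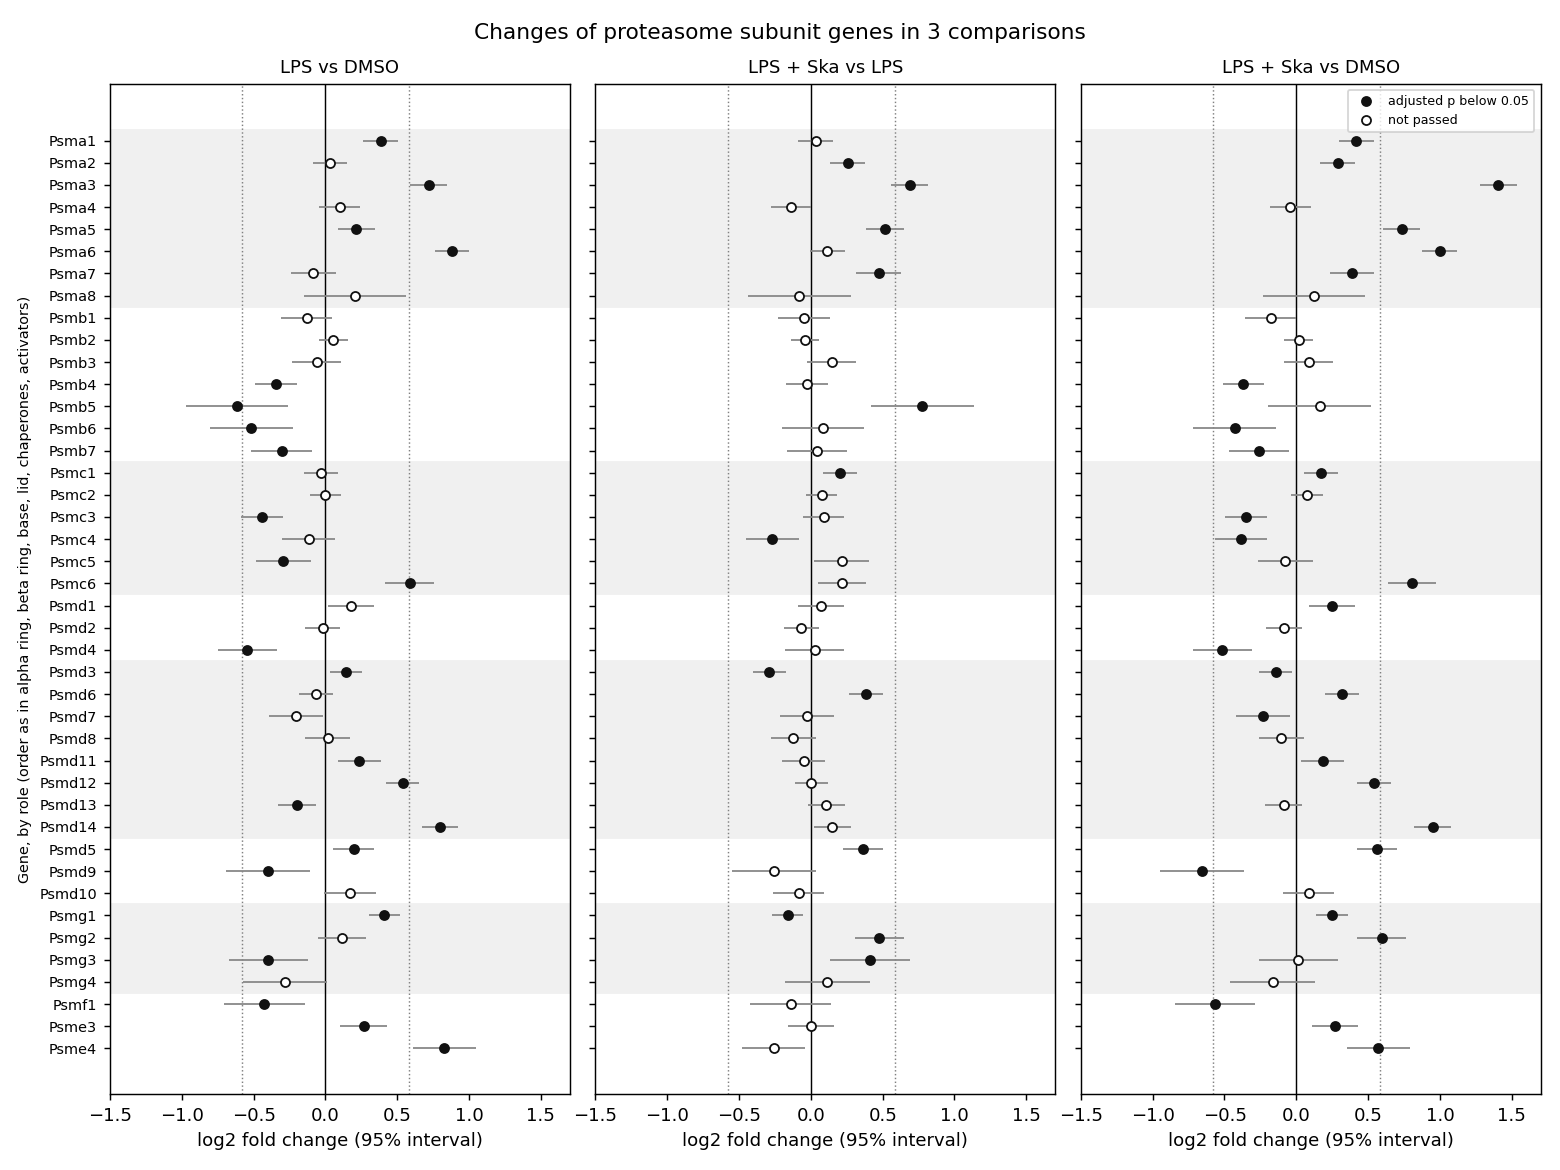
Log2 fold change of each member with its 95% interval in the 3 comparisons, with filled points for an adjusted p below 0.05, open points for genes that did not pass, and dotted lines at the fold limits of 1.5 and 0.67. Alpha ring genes lie mostly right of 0 and beta ring genes mostly left of it in LPS vs DMSO, and Psma3 and Psmb5 alone pass the fold limit in LPS + Ska vs LPS.

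Transcript GC content moved with the LPS change. Across the 42 members the Spearman correlation of the log2 change with GC content was -0.686, and across 12805 genes it was -0.562, where genes share the columns and are not independent. Alpha ring transcripts had a median GC content of 44.5% and beta ring transcripts 52.2%. When the trend of each column on GC content was removed, alpha ring calls became 3 higher and 2 lower and beta ring calls 2 higher and 3 lower, while 5 of 8 alpha genes lay above 0 and 5 of 7 beta genes below it. Under the same removal the change of Psma6 was 0.65 and that of Psmd14 was 0.38, whereas the changes of Psmb5 (-0.20) and Psmb6 (-0.15) no longer passed (adjusted p = 0.2612 and 0.2689). Psma1 went from 0.39 to 0.01 and Psmc6 from 0.59 to -0.0086. In total, 4 of the 13 higher calls (Psma1, Psmc6, Psmd5 and Psmd11) and 7 of the 11 lower calls (Psmb5, Psmb6, Psmc3, Psmc5, Psmd9, Psmd13 and Psmg3) were lost. Over all alternatives, 8 of the 13 higher members (Psma3, Psma5, Psma6, Psmd12, Psmd14, Psme3, Psme4 and Psmg1) and 2 of the 11 lower members (Psmb4 and Psmd4) passed every time. Median-ratio scaling between columns turned the counts into 18 higher and 6 lower, beside 3996 and 3839 of all genes, where the main fit had 3354 and 4380.

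**Figure D3:**
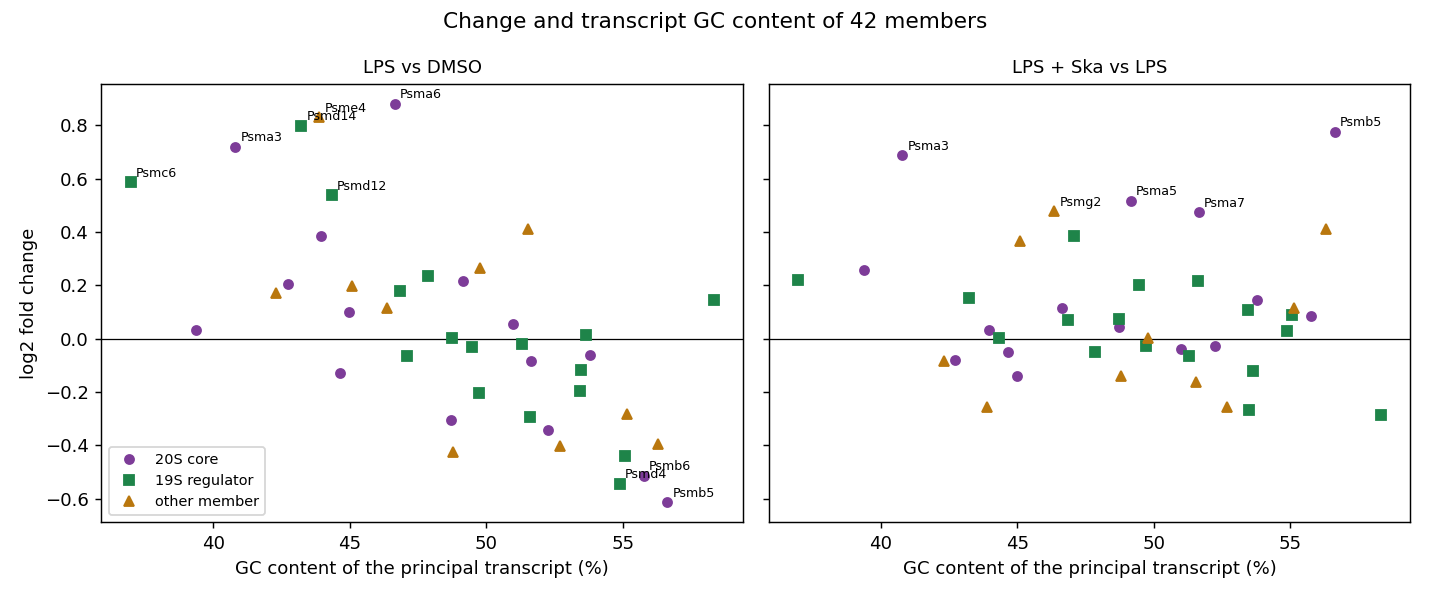
Log2 fold change of the 42 members against the GC content (%) of the principal transcript, for LPS vs DMSO (left) and LPS + Ska vs LPS (right), with circles for the 20S core, squares for the 19S regulator and triangles for the others. The points slope downwards on the left, with a Spearman correlation of -0.686, while on the right it is -0.055 over all members, 0.232 within the core and -0.483 within the regulator.

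LPS + Ska compared with LPS asked what skatole changed in stimulated cells. Changes here were fewer and mostly upwards in the core: 5 of 15 core genes rose (Psma2, Psma3, Psma5, Psma7 and Psmb5) and none fell. In the 19S regulator 2 of 17 rose (Psmc1 and Psmd6) and 2 fell (Psmc4 and Psmd3). Of the others, Psmd5, Psmg2 and Psmg3 rose and Psmg1 fell. In all, 10 members rose and 3 fell, beside 8.89% and 19.7% of all genes, and 29 did not pass. With the fold limits Psmb5 and Psma3 were higher, beside 3.35% of all genes, and no member was lower, beside 6.14%, although 3 members passed downwards on adjusted p alone. The median change was 0.06 for the members and -0.10 for all genes. Both groups here are tied. With 2 values per group recovered from the tied columns, the limma adjusted p went from 9.4e-05 to 0.0018 for Psma3 and from 0.00039 to 0.0046 for Psma5. Of the members that passed, only Psmb5 had a lower one (0.0070 to 0.0053).

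Psmb5 changed most in this comparison. It was higher in each LPS + Ska column (73.6 to 118 TPM) than in each LPS column (46.9 to 62.9 TPM), by 0.78 ± 0.16 (adjusted p = 0.0070), a 1.71-fold rise with a 95% interval of 0.42 to 1.13 on the log2 scale. Leaving out a column moved this change between 0.61 and 0.95. The other catalytic genes had smaller values, with 0.09 for Psmb6 (95% interval -0.20 to 0.37) and 0.04 for Psmb7 (-0.16 to 0.25), and neither passed. Whether Psmb5 differed from them in its change was not tested.

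Psma3 rose again, by 0.69 ± 0.06 (adjusted p = 9.4e-05), a 1.61-fold difference between columns given above. Psma5, also in the alpha ring, had 299, 317 and 349 TPM with DMSO, 373, 369 and 377 TPM with LPS, and 535, 537 and 532 TPM with LPS + Ska. The groups were separate, and the step from LPS to LPS + Ska was the larger, at 0.52 ± 0.06 (adjusted p = 0.00039) against 0.22 ± 0.06 for LPS over DMSO (adjusted p = 0.0095). Psma7, the constitutive counterpart of Psma8, rose by 0.47 ± 0.07 (adjusted p = 0.0015), and its change with LPS alone was -0.09 and did not pass.

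Psmd6, a lid scaffold subunit, had 138, 148 and 147 TPM with DMSO, 138, 139 and 137 TPM with LPS, and 181, 172 and 190 TPM with LPS + Ska. DMSO and LPS overlapped and LPS + Ska stood above both. The change over LPS was 0.38 ± 0.05 (adjusted p = 0.0011). Its lid neighbour Psmd3 went the other way, with 184, 177 and 189 TPM with DMSO, 202, 200 and 205 TPM with LPS, and 166, 173 and 159 TPM with LPS + Ska. LPS was highest and LPS + Ska lowest, without overlap. Psmd3 changed by -0.29 ± 0.05 over LPS (adjusted p = 0.0032), while its rise of 0.14 with LPS over DMSO (adjusted p = 0.0313) was lost on leaving out any of 6 columns, with an adjusted p up to 0.0972.

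Psmc4, a base ATPase, had 202, 214 and 211 TPM with DMSO, 193, 187 and 198 TPM with LPS, and 161, 141 and 180 TPM with LPS + Ska. The LPS + Ska columns were the lowest and spread most. The change over LPS was -0.27 ± 0.08 (adjusted p = 0.0356), and the call was lost on leaving out any of 6 columns, with an adjusted p up to 0.1051. The fall of Psmg1, -0.16 ± 0.05 (adjusted p = 0.0353), was lost on leaving out any of 5 columns, up to 0.1312, and with the values recovered from the tied columns, at 0.1302. For Psmc4 these columns were DMSO replicate 6, LPS + Ska replicates 5 and 6 and the 3 LPS replicates, and for Psmg1 LPS + Ska replicates 5 and 7 and the 3 LPS replicates.

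Over all alternatives 7 of the 10 higher members passed every time, namely Psma3, Psma5, Psma7, Psmb5, Psmd5, Psmd6 and Psmg2, and of the lower members only Psmd3 did. GC content had a Spearman correlation of -0.055 with this change across the members and -0.031 across all genes, and within the classes it was 0.232 over the 15 core genes and -0.483 over the 17 of the regulator. Median-ratio scaling gave 17 higher and 1 lower member, beside 1836 and 1676 of all genes, where the main fit had 1139 and 2524. Within LPS + Ska, the difference of replicate 6 from replicate 7 correlated with GC content across the members at -0.524, and with transcript length at 0.525. Across all genes these values were -0.351 and 0.412.

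Set against DMSO, the LPS + Ska columns share the LPS + Ska side of the comparison above and the DMSO side of the first, so its values are not independent of either. Here 18 members rose, 10 fell and 14 did not pass, beside 22.7% and 40.6% of all genes. With the fold limits 6 were higher (Psma3, Psma5, Psma6, Psmc6, Psmd14 and Psmg2) and Psmd9, a base chaperone, was lower at -0.66 ± 0.13 (adjusted p = 0.0016), beside 11.4% and 25.3%. Psma3 had the largest change, 1.41 ± 0.06 (adjusted p = 1.9e-07), a 2.65-fold rise. Psma6 was 1.996-fold higher, Psmd14 1.93-fold, Psmc6 1.75-fold and Psma5 1.66-fold. With the GC trend removed the log2 changes were 0.87 for Psma3, 0.79 for Psma6, 0.53 for Psmd14, 0.17 for Psmc6 and 0.70 for Psma5. All of these still passed, with Psmc6 at an adjusted p of 0.0164. Psmb5 was at 0.16 with a 95% interval of -0.20 to 0.52 and did not pass, except without LPS + Ska replicate 6, where it was 0.34 (adjusted p = 0.0426), and with the GC trend removed, where it was 0.56 (adjusted p = 0.0068).

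Psmb4, Psmb6 and Psmb7 remained below DMSO, by -0.37, -0.43 and -0.26, with adjusted p-values of 0.00081, 0.0148 and 0.0335. Of these, the Psmb7 call was lost on leaving out any of 6 columns, with an adjusted p up to 0.0882: the 3 DMSO replicates, LPS + Ska replicates 5 and 6, and LPS replicate 5. Median-ratio scaling ended all 3 calls, and with the GC trend removed Psmb6 was at -0.078 (adjusted p = 0.5554). Psmd4 (-0.52), Psmc3 (-0.35) and Psmc4 (-0.38) were also lower, with adjusted p-values of 0.00087, 0.0011 and 0.0024. With the GC trend removed Psmc3 was at -0.039 and Psmc4 at -0.16 (adjusted p = 0.5369 and 0.0762), and both calls were lost under median-ratio scaling too. Psmd3 was lower by -0.14 (adjusted p = 0.0296), a value that became 0.36 with the GC trend removed. Psmd7, a lid subunit, was lower at -0.23 (adjusted p = 0.0338), with overlapping columns, and the call was lost on leaving out any of 5 columns. Psma2, Psmc1 and Psmd1 passed upwards at 0.29, 0.17 and 0.25. With the GC trend removed Psma2 passed downwards, at -0.29 (adjusted p = 0.0123), and Psmd1 was at 0.060 (adjusted p = 0.3970), while the Psmc1 call was lost without DMSO replicate 5 or LPS + Ska replicate 5 and in a fit of the compared groups alone. The members that passed in no comparison of the main fit were 10, namely Psma4, Psma8, Psmb1, Psmb2, Psmb3, Psmc2, Psmd2, Psmd8, Psmd10 and Psmg4, with changes between -0.28 (Psmg4 with LPS) and 0.20 (Psma8 with LPS). With the GC trend removed, Psma4 (-0.35), Psmb1 (-0.51) and Psmd10 (-0.38) passed downwards in LPS + Ska over DMSO and Psmb3 (0.33) upwards. Psmb2 (0.12) and Psmd8 (0.25) then passed upwards with LPS, while Psma8, Psmc2, Psmd2 and Psmg4 still passed in no comparison. In every alternative 11 members passed upwards, and 3 passed downwards (Psmd4, Psmd9 and Psmf1). Median-ratio scaling, which moved the median of all genes by 0.16 in this comparison, gave 22 higher and 3 lower members, beside 4071 and 4055 of all genes, where the main fit had 2915 and 5201.

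The 20S core and the 19S regulator were then set beside each other. Their median changes with LPS were 0.03 and -0.02, a gap of 0.05. With LPS + Ska over LPS they were 0.09 and 0.07, a gap of 0.02, and with the length trend removed they were -0.025 and 0.0080. Against DMSO the core was at 0.12 and the regulator at -0.08, a gap of 0.20 that was -0.02 with the GC trend removed. The summed TPM of the core was 3835 ± 72 with DMSO, 4068 ± 30 with LPS and 4550 ± 188 with LPS + Ska (SD, 3 columns each, the last 2 groups tied), and that of the regulator was 2985 ± 104, 3062 ± 24 and 3161 ± 51. Core sums did not overlap between any of the groups, whereas the regulator sums of DMSO and LPS did. Abundant genes weigh most in such sums: from DMSO to LPS the mean of Psma6 went from 338 to 624 TPM and that of Psmb4 from 577 to 455 TPM. The median over core genes went the other way, from 279.8 ± 3.1 TPM in DMSO to 235.8 ± 4.2 in LPS, beside 236.5 ± 16.2 in LPS + Ska. This median is the TPM of a single gene, which was Psmb6 in each DMSO column and Psmb2 in each LPS column. Psmb2 itself changed by 0.06 with LPS and did not pass, and the fall of Psmb6 did not pass with the GC trend removed. The ratio of the core median to the regulator median was 1.498 to 1.64, 1.36 to 1.43 and 1.31 to 1.39 in the same order, so DMSO was highest without overlap.

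The rings of the core were also summed apart. Summed alpha ring TPM was 1858, 1978 and 2012 with DMSO, 2482, 2536 and 2429 with LPS, and 2887, 2891 and 2882 with LPS + Ska, for replicates 5, 6 and 7. The groups formed separate steps. Summed beta ring TPM was 1894, 1894 and 1868 with DMSO, 1586, 1563 and 1609 with LPS, and 1663, 1471 and 1855 with LPS + Ska. DMSO was highest, and the LPS + Ska columns enclosed those of LPS. The ratio of the alpha sum to the beta sum was 0.981 to 1.08 with DMSO, 1.51 to 1.62 with LPS and 1.55 to 1.97 with LPS + Ska, so the groups with LPS overlapped each other and not DMSO. These ratios carry the GC difference between the rings given above, and its part in them was not tested.

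**Figure D4:**
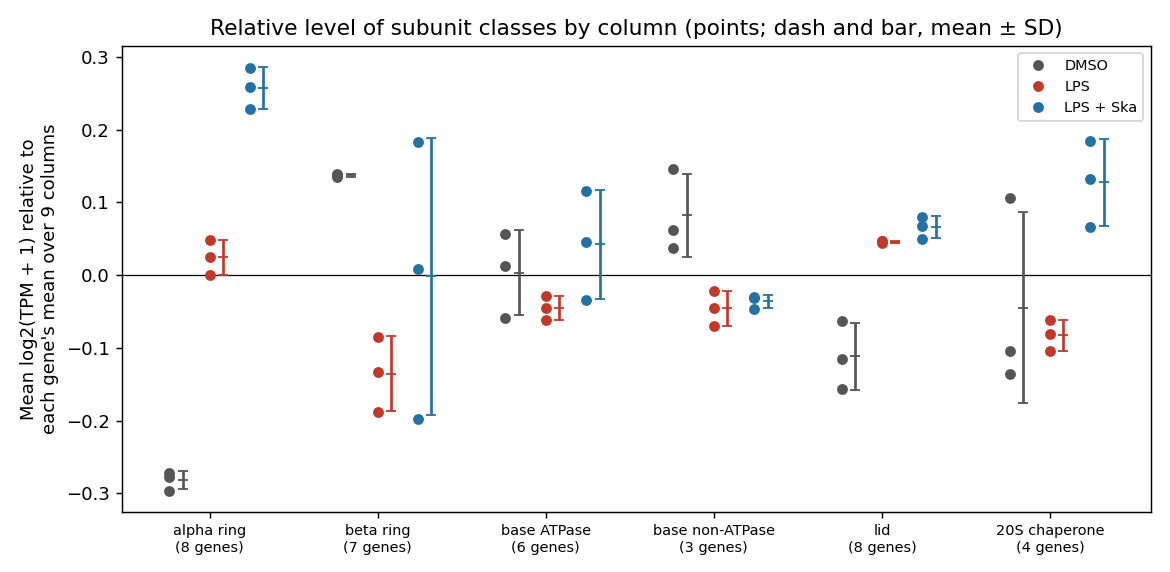
Mean log2(TPM + 1) of the genes of each class relative to each gene's own mean over the 9 columns, for each column (points) with the mean and SD of each group (dash and bar). The alpha ring rises in steps from DMSO to LPS to LPS + Ska, the beta ring has its highest group mean with DMSO, and LPS + Ska replicates 6 and 7 lie far apart in the beta ring.

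Constitutive catalytic genes were compared with their inducible counterparts as ratios of TPM. Psmb5 to Psmb8 was 1.80 ± 0.15 with DMSO, 1.36 ± 0.16 with LPS and 2.199 ± 0.24 with LPS + Ska (SD, 3 columns each, the last 2 groups from tied columns). LPS lay below both other groups in every column. Psmb6 to Psmb9 was 16.2 ± 3.0, 28.5 ± 6.0 and 22.9 ± 2.5, where both LPS groups were above DMSO and overlapped each other. Psmb7 to Psmb10 was 3.45 ± 0.19, 4.67 ± 0.16 and 5.79 ± 0.11, in separate steps. None of the 9 comparisons could pass, since the smallest p of an exact two-sided permutation test of 3 columns against 3 is 0.1. It was reached in 7 of them (adjusted p = 0.1286), and the other 2 gave 0.2. Each comparison includes a group of tied columns, which are not 3 separate values, so these p-values are too small and nothing was drawn from them.

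**Figure D5:**
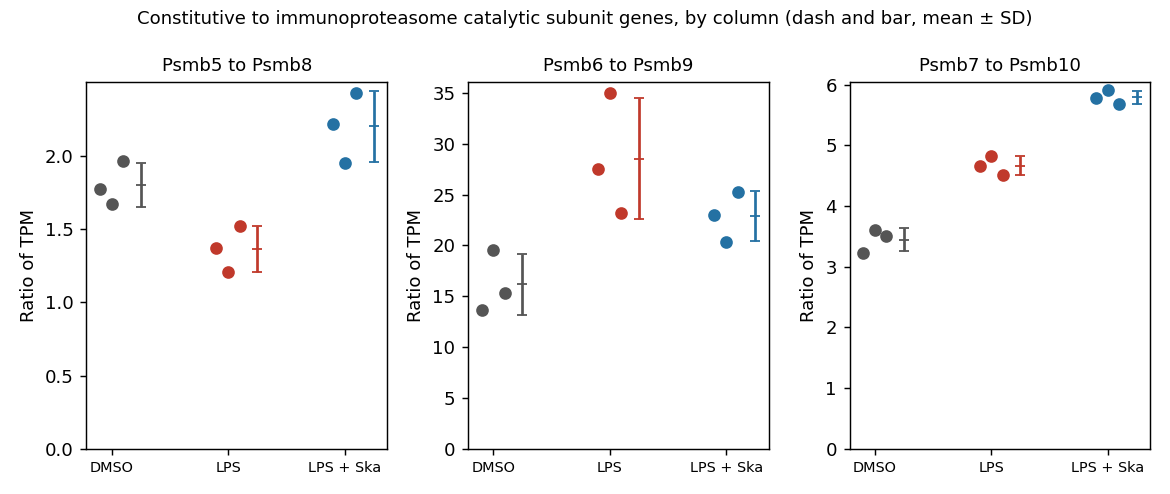
Ratio of the TPM of each constitutive catalytic gene to its inducible counterpart in each column (points) with the mean and SD of each group (dash and bar), on axes that start at 0. Psmb5 to Psmb8 is lowest with LPS, and Psmb7 to Psmb10 climbs from 3.45 with DMSO to 5.79 with LPS + Ska.

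With LPS the fitted changes of both genes of each pair were below 0. Psmb9 had 20.2, 14.4 and 18.4 TPM with DMSO, 7.12, 5.25 and 8.98 TPM with LPS, and 9.14, 8.18 and 10.1 TPM with LPS + Ska, and fell with LPS by 1.22 on the log2 scale (adjusted p = 0.00033). Psmb10 fell by 0.73 (adjusted p = 0.00029). Psmb8 had 45.1 to 48.0 TPM with DMSO, 38.9 to 41.4 TPM with LPS and 37.7 to 48.6 TPM with LPS + Ska, and passed in no comparison. Of the 5 inducible genes, with the PA28 subunits Psme1 and Psme2, 2 fell and none rose with LPS, none passed in LPS + Ska over LPS, and 4 fell in LPS + Ska over DMSO, beside 34.2%, 19.7% and 40.6% of all genes that fell. With the GC trend removed the falls of Psme1 and Psme2 over DMSO did not pass (adjusted p = 0.1306 and 0.2873).

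Promoter sequences are shown for the members that these comparisons turned on, Psma3, Psma5 and Psmb5 for LPS + Ska over LPS and Psmd14 as the 19S gene that moved most with LPS. Each is the 160 bases before the RefSeq start site (GRCm38.p6), 5′ to 3′ on the strand of the gene, at chr12:70974463-70974622 (plus) for Psma3, chr3:108256766-108256925 (plus) for Psma5, chr14:54617996-54618155 (minus) for Psmb5 and chr2:61711534-61711693 (plus) for Psmd14. Capitals mark matches, on either strand, to the 4 motifs searched.
Psma3: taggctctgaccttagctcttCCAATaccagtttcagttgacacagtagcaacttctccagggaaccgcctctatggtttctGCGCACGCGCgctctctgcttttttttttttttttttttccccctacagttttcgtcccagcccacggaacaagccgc
Psma5: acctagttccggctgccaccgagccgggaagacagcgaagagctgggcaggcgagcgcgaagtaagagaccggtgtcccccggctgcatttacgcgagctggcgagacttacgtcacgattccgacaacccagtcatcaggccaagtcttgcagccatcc
Psmb5: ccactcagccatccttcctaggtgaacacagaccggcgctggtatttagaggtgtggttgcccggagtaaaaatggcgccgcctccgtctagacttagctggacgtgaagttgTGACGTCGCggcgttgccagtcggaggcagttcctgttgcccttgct
Psmd14: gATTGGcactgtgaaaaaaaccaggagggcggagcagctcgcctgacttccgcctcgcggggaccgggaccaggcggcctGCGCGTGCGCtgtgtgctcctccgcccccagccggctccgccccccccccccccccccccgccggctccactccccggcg
The motifs were the core of the antioxidant response element, TGACNNNGC, to which Nfe2l1 and Nfe2l2 bind, the CCAAT box, the nuclear respiratory factor 1 site and the heat shock pair GAANNTTC. A window reached from 250 bases before to 50 after a start site, and 34 of the 42 members had such a window. The members without one were Psma8, Psmb1, Psmb2, Psmb7, Psmc3, Psmd3, Psmd7 and Psmg2. In Psmb5 the antioxidant core began at position -47 from the start, and matches were also found for Psmb6, Psmc6, Psmd9, Psmd12 and Psme4. These 6 members were 17.6% of those with a window, beside 12.4% of 32851 windows of all genes. The nuclear respiratory factor 1 site was matched in 7 members (Psma2, Psma3, Psma4, Psmc4, Psmc5, Psmd14 and Psmg1), which is 20.6% beside 4.6% of all windows, and it began at position -78 in Psma3 and -80 in Psmd14. CCAAT was matched in 12 members (35.3% beside 37.4%) and the heat shock pair in Psmb5 and Psmf1 (5.88% beside 7.86%). In the 160 bases of Psma5 no motif was matched. Members were counted by gene and the background by window, over all genes whether or not expressed here. The shares are therefore not like for like, and no background matched for expression or promoter GC content was used. A match is a description of letters and not of binding.

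Other proteins that work with the proteasome were taken from a list, of which 11 genes were tested and Paaf1 was not matched by symbol. With LPS 5 rose and 2 fell, beside 26.2% and 34.2% of all genes, and with the GC trend removed 1 was higher and 4 were lower. Usp14, a deubiquitinase that sits on the regulator, rose by 0.65 (adjusted p = 0.00024), and Sem1, the smallest lid subunit, by 0.53 (adjusted p = 0.00082), whereas Adrm1, a ubiquitin receptor of the base, fell by 0.65 on the log2 scale (adjusted p = 0.0029). These changes were 0.10, -0.06 and -0.09 with the GC trend removed, and none of the 3 then passed. In LPS + Ska over LPS only Pomp passed, the maturation factor of the core, at 0.22 (adjusted p = 0.0433, and 0.1016 with recovered values). Of 5 regulators of proteasome genes, 2 fell and none rose with LPS, beside 34.2% and 26.2% of all genes. Nfe2l2 and Ddi2, the protease that activates Nfe2l1, fell by 0.22 and 0.49 on the log2 scale (adjusted p = 0.0118 and 0.0136). The Nfe2l2 call was lost with the length trend removed (adjusted p = 0.1036). With the GC trend removed 1 of the 5 was higher and 3 were lower. None passed in LPS + Ska over LPS. Nfe2l1, which raises proteasome genes when degradation is impaired, had 46.7 to 59.3 TPM with DMSO, 54.6 to 64.7 TPM with LPS and 49.1 to 55.8 TPM with LPS + Ska. Its groups overlapped, and its change over LPS was -0.18 with a 95% interval of -0.40 to 0.04. The Nfe2l1 change with LPS over DMSO passed only under median-ratio scaling and with the GC trend removed.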

How the data were processed

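RNA-seq of 9 RAW264.7 samples (DMSO, LPS and LPS + Ska) was analysed. The authors deposited TPM for each gene, per the labels made with fastp 0.20.1, HISAT2 2.2.1 and StringTie 2.0 on mm10, and the annotation is not given in the sources used here. The labels and the study's results give 24 h of treatment, and its sequencing methods a longer one. Of 55401 identifiers, 55141 matched a symbol.

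R 4.3.3 and its package limma 3.58.1 served for the fits, which took in all 9 columns and let the prior variance follow mean level (lmFit, then eBayes). Values entered as log2(TPM + 1), with 1 as pseudocount, for the 12819 genes averaging 1 TPM or more, and p-values were adjusted over all of them by the Benjamini-Hochberg method. Fold changes on this scale understate those of low genes. Passing meant an adjusted p below 0.05. Ratios were tested by exact two-sided permutation, adjusted over 9 tests. The fit was checked on simulated data with independent columns, and its error rate with tied columns is not given here.

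The members and lists were chosen with earlier results of these data known. Named genes were the catalytic genes, the 3 members with the smallest adjusted p in each direction of a comparison, the largest change and the highest and lowest mean TPM. Other members are named by their call.

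GC content and length came from the principal transcript of each gene (GENCODE M21). It replaced the longest transcript after the longest was seen to be an extended form for some members. The 2 values per gene of the tied groups were recovered from replicate 5 by adding and taking away 0.5 times its gap to the higher of replicates 6 and 7. This takes that gap as the full difference between the 2 values, which was not tested. Each column was also left out in turn. Where that left 2 columns in a group, the fit pooled the spread over groups. Other settings tried were median-ratio scaling, loess removal (span 0.3) of a length or GC trend, recovered values, a replicate block, a constant prior variance (no intensity trend), fits limited to both groups compared, 0.1 as pseudocount, and a low-value limit of 5 TPM or none.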

Additional observations from a re-analysis of the deposited data

How the results depend on the processing

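Every sample value is a TPM, so depth gives no interval, and the tied columns leave at most 2 independent values per gene in the LPS and LPS + Ska groups. The labels do not separate culture from technical replicates. Removing the GC trend left 15 of 42 members with the same direction and call in LPS over DMSO and 20 over DMSO with LPS + Ska (28 and 24 under median-ratio scaling), against 37 over LPS (25 under median-ratio scaling), and the cause was not tested. With LPS over DMSO it gave 2 members called higher and 0 called lower with fold limits, a core median of -0.15 and a core minus regulator gap of -0.14. It turned the changes of Psma2 (-0.51), Psma4 (-0.23), Psmb3 (0.18), Psmc6 (-0.0086), Psmd5 (-0.12), Psmd10 (-0.29), Psmd13 (0.021), Sem1 (-0.055) and Sqstm1 (0.25). With LPS + Ska over DMSO it gave 3 called higher, medians of 0.043 (core) and 0.065 (regulator), a gap of -0.022, and turned Psma2 (-0.29), Psmd3 (0.36), Psmd10 (-0.38) and Psmb8 (0.23). Median-ratio scaling gave, with LPS, 6 lower, 0 called lower, and medians of 0.11 (core) and 0.065 (regulator). With LPS + Ska over LPS it gave 17 higher, 1 lower, and medians of 0.18 and 0.17, and over DMSO 3 lower, 10 called higher, 0 called lower, medians of 0.30 and 0.10, and Psmd3 at 0.0385. Removing the length trend gave, with LPS, 0 called lower, medians of 0.10 and 0.11 and a gap of -0.0062, over LPS 6 lower and medians of -0.025 and 0.0080, and over DMSO a regulator median of -0.0034 and a gap of 0.12. Without an intensity trend 1 member was lower over LPS, and a pseudocount of 0.1 gave 2 called lower over DMSO.

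With a column left out in turn, members called lower with LPS numbered 0 to 2 (2 without DMSO replicate 6, 0 without DMSO replicate 7 or LPS replicate 6). Those lower over LPS numbered 1 to 3, with 1 without LPS + Ska replicate 5 or any LPS replicate and 2 without DMSO replicate 6. The core median over LPS ranged from 0.047 to 0.16, the latter without LPS + Ska replicate 6. Over DMSO, members called lower numbered 0 to 2 (2 without DMSO replicate 6 or LPS + Ska replicate 7, 0 without LPS + Ska replicate 6), the core median 0.0104 to 0.21, the regulator median -0.11 to 0.0021 and the gap 0.064 to 0.27, the lowest core median and gap being those without LPS + Ska replicate 7. Deviations of same-numbered columns correlated at 0.384, 0.151 and 0.128 for LPS against LPS + Ska, and at -0.032 to 0.08 for the other pairs of groups. Since tied columns are not 3 separate observations, shared numbers were not read as a pairing. The replicate block gave 12 higher and 11 lower members with LPS, 10 and 2 over LPS, and 17 and 9 over DMSO. It ended the calls of Psmd3 and Psmd11 over DMSO, Psmd3 with LPS and Psmg1 over LPS. The filter, the mean TPM of at least 5, the fit of the compared groups alone and recovered values left each member count within 1.5 times of its main value. In LPS + Ska over LPS recovered values gave 8 higher and 2 lower members, beside 756 and 1630 of all genes, where the main fit had 1139 and 2524. The calls of Psmc1 (adjusted p = 0.0671), Psmg3 (0.0652) and Psmg1 (0.1302) were lost there.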

Other observations

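Genes that supply ubiquitin or carry substrates to the proteasome moved in several directions. Of 13 on the list, 3 rose and 3 fell with LPS, 1 rose and 3 fell in LPS + Ska over LPS, and 3 rose and 6 fell in LPS + Ska over DMSO, beside 26.2% and 34.2%, 8.89% and 19.7%, and 22.7% and 40.6% of all genes. Sqstm1, the ubiquitin-binding autophagy receptor p62, had 382, 385 and 471 TPM with DMSO, 394, 364 and 424 TPM with LPS, and 539, 519 and 559 TPM with LPS + Ska. DMSO and LPS overlapped and LPS + Ska stood above both, with a change over LPS of 0.45 ± 0.09 (limma, adjusted p = 0.0056). The shuttle gene Rad23b rose with LPS by 0.57 (adjusted p = 1.4e-05). In LPS + Ska over LPS, Uba1, the main ubiquitin-activating enzyme, and Ubqln4, another shuttle, fell by 0.28 and 0.43 on the log2 scale (adjusted p = 0.0167 and 0.00094). Rad23b, Uba1 and Ubqln4 are named here after their values were seen.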
